A study of Mus musculus with 19 samples.

Results

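Itga8, Npnt, Fras1, Frem1, Frem2 and Grip1 encode a cell surface receptor, its extracellular ligand, 3 proteins of the embryonic basement membrane and an intracellular adaptor, and their messenger RNA was followed through 7 groups of mouse embryonic kidney cells. The genes were taken by symbol from both deposited expression tables. They are 6 of the 20162 named genes of the E16.5 table (E, embryonic day) and of the 24452 named genes of the E14.5 table. All 6 were listed in each table and all 6 passed the filter on low values.

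Itga8 encodes the alpha subunit of integrin alpha8 beta1, a receptor of the metanephric mesenchyme. Npnt encodes nephronectin, a matrix protein that the ureteric bud lays down and that this integrin binds; loss of either gene in mice impairs outgrowth of the bud, through reduced expression of the growth factor gene Gdnf in the mesenchyme. Fras1, Frem1 and Frem2 encode large proteins that assemble into the Fraser complex beneath embryonic epithelia, where the complex helps to anchor nephronectin, and Grip1 encodes a PDZ-domain adaptor that brings FRAS1 and FREM2 to the basal cell surface. Mutations of Fras1, Frem2 or Grip1 cause Fraser syndrome, in which kidneys are often missing, and mutations of Frem1 cause related disorders.

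All libraries came from kidneys of the CFW strain. At E16.5, nephrogenic zone cells (NZC, cells of the outer kidney where nephrons form) were prepared by MARIS, a method that recovers RNA from cells fixed, stained for an intracellular protein and sorted. They gave SIX2+ cells, SIX2- cells and unsorted NZC, with the allele given as NA. SIX2 is the transcription factor that marks nephron progenitors. Also at E16.5, GFP+ and GFP- cells came from Six2TGC/+ kidneys, in which a transgene with Six2 regulatory sequence drives GFP and Cre, and both fractions carry that transgene. These 5 groups had 3 libraries each. At E14.5, Tdt+ and Tdt- cells came from Foxd1Cre;Tdt kidneys and had 2 libraries each. The Tdt label there marks cells in which the Foxd1-driven Cre recombinase has acted, and their descendants, so it records a past or present Foxd1 state, that of stromal progenitors, and both fractions carry these alleles. The study set nephron progenitors beside stromal progenitors. Nothing in the labels ties each library to an animal of its own; the spread behind the p-values is that of the libraries and may be partly technical.

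Levels are RPKM (reads mapped to a gene, scaled by its length and by the reads of the library), a scale per length on which different genes can be compared. The E16.5 libraries had an estimated depth of 26.0 to 45.6 (in units of 1e6 reads), except unsorted NZC library 2 with 3.09. At E14.5 that depth was 30.4 and 26.4 for the Tdt- libraries and 9.45 and 8.45 for the Tdt+ libraries. NZC library 2 also stood apart in its content: its median log2 value of 68 histone genes was 7.43, where the remaining 14 E16.5 libraries had 0.668 to 1.61, and its Malat1, a nuclear RNA, was at 682.8 RPKM. As a check of the labels, Six2 was at 294.6 to 457.9 RPKM in the SIX2+ sort and 4.43 to 46.8 in its negative fraction. The reporter sort had 311.6 to 347.7 RPKM in positive and 2.70 to 16.8 in negative cells, and the highest value of each negative fraction was in library 3. Foxd1 averaged 153.3 RPKM in Tdt+ and 27.5 in Tdt- libraries. The Tdt- cells were not free of stroma: the summed level of 10 interstitial stroma markers was 2501 and 3363 RPKM there and 1681 to 2553 in Tdt+ libraries, and none of the 10 was at 0 in any library.

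The genes lie on separate chromosomes except for the pair Npnt and Frem2, which are far apart on chromosome 3. In the GENCODE M21 annotation of mm10, Itga8 (ENSMUSG00000026768.10) spans chr2:12106632-12301922 on the minus strand, Npnt (ENSMUSG00000040998.18) chr3:132881745-132950291 on the minus strand and Fras1 (ENSMUSG00000034687.8) chr5:96373955-96784728 on the plus strand. Frem1 (ENSMUSG00000059049.14) spans chr4:82897920-83052339 and Frem2 (ENSMUSG00000037016.11) chr3:53513938-53657355, both on the minus strand, and Grip1 (ENSMUSG00000034813.17) spans chr10:119453830-120087261 on the plus strand. The Fraser complex genes are long, with 17709, 13978 and 13255 bases of exon sequence in Fras1, Frem1 and Frem2, against 7368 in Itga8, 5026 in Npnt and 8064 in Grip1.

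Promoter sequence was available for 5 of the 6 genes: Itga8, Npnt, Frem1, Frem2 and Grip1, but not Fras1, was matched by symbol in RefSeq's table (GRCm38.p6, the assembly also called mm10). The 250 bases before the start site are shown for Itga8, Npnt and Frem2, which had the largest differences between Tdt+ and Tdt- cells. Each is written 5′ to 3′ in the direction of transcription, and capitals mark the motifs found.
Itga8 (chr2:12301945-12302194, minus strand): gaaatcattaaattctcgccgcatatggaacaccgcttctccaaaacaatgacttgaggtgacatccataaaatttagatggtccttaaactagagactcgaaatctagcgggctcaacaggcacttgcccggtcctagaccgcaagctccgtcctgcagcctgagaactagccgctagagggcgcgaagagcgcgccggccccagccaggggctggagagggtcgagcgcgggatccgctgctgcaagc
Npnt (chr3:132950292-132950541, minus strand): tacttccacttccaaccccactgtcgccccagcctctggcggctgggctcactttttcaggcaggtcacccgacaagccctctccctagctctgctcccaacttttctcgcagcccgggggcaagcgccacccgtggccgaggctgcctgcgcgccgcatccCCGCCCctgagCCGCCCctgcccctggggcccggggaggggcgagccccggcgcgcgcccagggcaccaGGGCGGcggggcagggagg
Frem2 (chr3:53657356-53657605, minus strand): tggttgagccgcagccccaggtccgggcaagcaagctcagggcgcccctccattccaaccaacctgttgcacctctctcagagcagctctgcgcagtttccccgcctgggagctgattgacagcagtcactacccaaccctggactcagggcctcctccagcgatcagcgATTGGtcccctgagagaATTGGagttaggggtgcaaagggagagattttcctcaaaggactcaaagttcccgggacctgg
The motifs searched, on both strands, were the core promoter element TATAAA, the nuclear factor Y element CCAAT, the Sp1 element GGGCGG (called GC box below), the core TCAGGTT bound by SIX2 and its relatives, the zinc finger factor core AGATAA and the homeodomain core TAATTA. None of them was in the Itga8 window. The Npnt window held 3 GC boxes, at positions -88 to -83 and -77 to -72 on the other strand and -19 to -14 on the same strand, counted back from the start site. The Frem2 window held 2 nuclear factor Y elements on the other strand, at -80 to -76 and -63 to -59. Of 32851 mouse promoters of the same length, 32.7% held a GC box and 33.8% a nuclear factor Y element, so neither is rare. The SIX2-type core was in 3.49% of them and in none of the 5 windows. GC content was 56.4% for Itga8, 74.0% for Npnt and 59.6% for Frem2.

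Across the E16.5 groups the integrin and the other genes had different orders of levels, as the plot of all libraries shows. Itga8 was highest on average in SIX2+ cells and lowest in SIX2- cells. Npnt, Fras1 and Frem1 were each lowest in SIX2+ cells, second lowest in GFP+ cells and higher in the 3 groups that hold other cells. Frem2 was also lowest in SIX2+ cells, but GFP+ cells came second only to unsorted NZC. Grip1 moved little. Its highest group mean was 1.43 times its lowest, against 2.58 for Itga8, 3.15 for Frem2, 4.69 for Fras1, 7.87 for Npnt and 8.09 for Frem1.

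**Figure D1:**
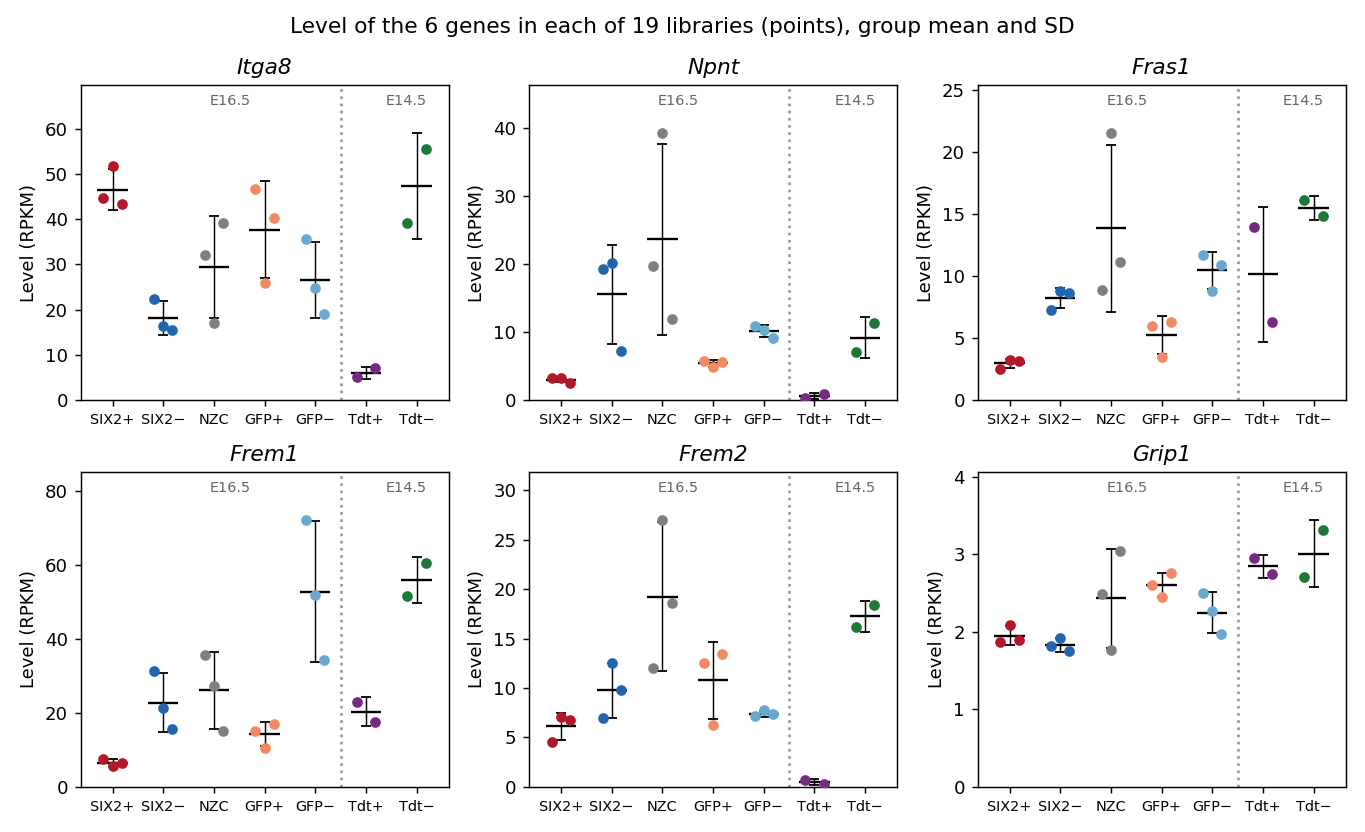
Level in RPKM (y axis, from 0) of each gene in every library (points), with the group mean (wide bar) and SD (error bar) by group (x axis); the dotted line separates the tables, which were normalised separately. Itga8 is at 43.3 to 51.8 in SIX2+ libraries, and at E14.5 its 39.1 and 55.6 (Tdt-) stand far above its 5.15 and 6.997 (Tdt+), Npnt and Frem2 are below 1 RPKM in both Tdt+ libraries, and Grip1 lies between 1.75 and 3.32 in all 19.

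Differences between groups were tested with limma on log2(RPKM + 1) over all genes that passed the filter, 12817 at E16.5 and 12383 at E14.5, and a gene was called at an adjusted p under 0.05. Between SIX2+ and SIX2- cells 4 of the 6 genes were called, 1 higher (Itga8) and 3 lower (Npnt, Fras1 and Frem1), where 24.3% of all genes tested were called (8.37% higher and 15.9% lower). Between GFP+ and GFP- cells 2 were called, both lower (Fras1 and Frem1), where 32.9% of all genes were called (15.9% higher and 17.0% lower). The GFP count is a share of the members near that background. Between Tdt+ and Tdt- cells 4 were called, all lower (Itga8, Npnt, Frem1 and Frem2), where 8.43% of all genes were called (1.22% higher and 7.21% lower). Npnt and Frem2 passed the filter there only through the Tdt- libraries, in which they are high, so their calls lend that count no support and their values are given as a description. The median difference over the 6 genes was -0.90 and -0.32 in the SIX2 and GFP comparisons, and over all genes tested 0.04 and 0.09. The genome-wide splits depend on scaling: quantile normalisation gave 1578 higher and 1574 lower genes between SIX2+ and SIX2- in place of 1073 and 2036 and 239 higher and 483 lower between Tdt+ and Tdt- in place of 151 and 893, and rescaling to TPM gave 1397 and 2532 between GFP+ and GFP- in place of 2035 and 2184. TPM also moved the median of all genes between Tdt+ and Tdt- cells from -0.04 to -0.29. The members called in these 3 comparisons were called in the same direction under each of these scalings.

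Itga8, the receptor subunit, was at 44.6, 51.8 and 43.3 RPKM in SIX2+ libraries 1, 2 and 3, and at 22.4, 16.3 and 15.55 in SIX2- libraries. The groups did not overlap, and the lowest SIX2+ value was well above the highest SIX2- value. Itga8 rose in SIX2+ cells by 1.33 ± 0.29 on the log2 scale (SE, n = 3 against 3, limma adjusted p = 0.00375), and its means of 46.6 ± 4.54 and 18.1 ± 3.76 RPKM (SD) differ 2.58-fold. Of the 8 mural and mesangial markers, of cells that later express Itga8, 7 fell and 1, Des, rose in SIX2+ cells. The list summed to 41.8 to 59.1 RPKM in SIX2+ and 187.6 to 264.6 in SIX2- libraries, and without Des, named after its values were seen, to 5.65 to 11.3 and 176.8 to 250.8, and its part in the result was not tested. Itga8 was the single member of the 6 to rise in any of the 3 main comparisons. In the reporter sort Itga8 was at 46.8, 25.9 and 40.4 RPKM in GFP+ and 35.7, 24.85 and 19.1 in GFP- libraries. These groups overlapped, through GFP+ library 2 and GFP- library 1, and the difference of 0.49 ± 0.29 (95% interval -0.14 to 1.12) did not pass (limma adjusted p = 0.222). In each numbered pair the GFP+ library was the higher.

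The level of Itga8 was not low outside the SIX2+ cells: in SIX2- libraries it stood at the 68.4th percentile of all genes tested, in GFP- libraries at the 79.9th and in SIX2+ libraries at the 88.3rd. Unsorted NZC had 32.0, 17.1 and 39.2 RPKM, and the low value was that of library 2. In the order of E16.5 means, SIX2+, GFP+, NZC, GFP- and SIX2-, each group overlapped the next.

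At E14.5 Itga8 was at 5.15 and 6.997 RPKM in the Tdt+ libraries and at 39.1 and 55.6 in the Tdt- libraries. The groups were far apart. Itga8 fell in Tdt+ cells by 2.76 ± 0.27 (n = 2 against 2, limma adjusted p = 0.00144), a 7.8-fold difference of the means. The summed level of 7 nephron progenitor markers moved the same way, at 249.9 and 278.1 RPKM in Tdt- and 12.2 to 16.4 in Tdt+ libraries. So did the podocyte sum (44.8 and 59.3 against 6.35 and 6.77) and those of endothelial, leukocyte, erythroid, ureteric and early nephron epithelium markers. The ureteric sums were apart only through Hoxb7, named after its values were seen. Without it they overlapped, at 21.2 and 33.8 RPKM in Tdt- and 18.3 and 24.4 in Tdt+ libraries. The interstitial stroma and mural sums overlapped. The part of any of these cell types in the result was not tested, and in bulk samples fewer cells of a type and less RNA per cell cannot be told apart. The call did not hold when genes were tested with no filter on low values (limma adjusted p = 0.0507).

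An antisense gene, E030013I19Rik, overlaps the 5′ end of Itga8 by 977 bases. Whether reads were counted by strand is not given in the sources used here, so reads of the overlap cannot be told apart. E030013I19Rik was chosen after its values were seen. It averaged 5.97 RPKM in SIX2+ and 1.03 in SIX2- libraries and rose by 1.79 ± 0.39 (limma adjusted p = 0.00322), it rose between GFP- and GFP+ cells by 1.46 ± 0.39 (limma adjusted p = 0.00967), and it averaged 0.185 RPKM in Tdt+ and 1.71 in Tdt- libraries, where it passed the filter only through the Tdt- group. Over the 15 E16.5 libraries its log2 level correlated with that of Itga8 at r = 0.78.

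Npnt, the ligand, had its lowest E16.5 values in the progenitor fractions. SIX2+ libraries were at 3.24, 3.24 and 2.56 RPKM and SIX2- libraries at 19.3, 20.2 and 7.20. The groups did not overlap, although SIX2- library 3 was much lower than the other SIX2- libraries. Npnt fell by 1.93 ± 0.37 (limma adjusted p = 0.00131), with means of 3.01 ± 0.39 and 15.55 ± 7.25 RPKM, a 5.17-fold difference. In GFP+ libraries Npnt was at 5.795, 4.82 and 5.61 RPKM and in GFP- libraries at 10.9, 10.3 and 9.17. Again the groups did not overlap, but the difference of -0.80 ± 0.37 (95% interval -1.59 to -0.01) did not pass (limma adjusted p = 0.115). It did pass with only the GFP libraries in the fit (limma adjusted p = 0.0015) and without NZC library 2 (0.0402), which changes the estimated spread and not the difference.

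Unsorted NZC had the highest mean level of Npnt, 23.7 ± 14.1 RPKM, from libraries at 19.7, 39.3 and 12. Library 2 set much of that spread. Many epithelial markers were also low in the progenitor fractions. Cdh1, the epithelial cadherin gene, was at 9.17 to 22.9 RPKM in NZC, 6.19 to 11.9 in SIX2-, 2.20 to 5.22 in GFP-, 0.101 to 0.364 in GFP+ and 0.247 to 0.474 in SIX2+ libraries. The summed level of the 12 ureteric epithelium markers was 86.3 to 234.8, 78.0 to 103.0, 37.3 to 59.2, 26.9 to 30.9 and 39.4 to 52.7 RPKM in the same order (7 of the 10 tested fell and 1, Hoxb7, rose in SIX2+ against SIX2- cells), so this sum did not have the order of the Npnt means. Hoxb7 made up most of it in SIX2+ libraries (28.8 to 36.3 RPKM). Without Hoxb7, named after its values were seen, the sum was 71.2 to 217.0 in NZC, 59.4 to 84.8 in SIX2-, 29.9 to 47.9 in GFP-, 7.65 to 12.8 in GFP+ and 10.6 to 16.3 in SIX2+ libraries. GFP+ was the lower of the progenitor fractions at both ends, so this sum did not have the order of the Npnt means either. In GFP+ against GFP- cells 6 of the full list fell and 1 rose. Aqp2, a marker of collecting duct, was at 0 in 4 of the 6 progenitor libraries. The 8 early nephron epithelium markers summed to 203.6 to 244.1 RPKM in NZC, 207.6 to 312.1 in SIX2-, 124.0 to 150.0 in GFP-, 53.2 to 77.3 in GFP+ and 64.9 to 86.8 in SIX2+ libraries, with Ccnd1 the largest share. In SIX2+ against SIX2- cells 7 of the 8 fell, and Fgf8 was not called (14.1 against 6.89 RPKM). Neither sum is of epithelium alone. In the stromal lineage Dkk1, of the early nephron list, rose (16.9 and 23.7 RPKM in Tdt+ against 8.19 and 9.04 in Tdt- libraries), while 6 of that list fell. Wnt11, of the ureteric list, was at 8.19 and 16.8 in Tdt+ against 6.39 and 6.80 in Tdt- libraries and was not called, while 2 of that list fell. Of these falls, 4 and 2 passed the filter only through the Tdt- libraries. The part of either list in the level of Npnt was not tested.

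In Tdt+ libraries Npnt was at 0.286 and 0.865 RPKM, and in Tdt- libraries at 7.03 and 11.3. Those low values rest on about 14 and 37 reads. The means differ 16-fold, and the difference was -2.68 ± 0.31 on the log2(RPKM + 1) scale, -3.89 with a pseudocount of 0.1 and -1.33 with 5. Since Npnt passed the filter only through the Tdt- libraries, the test that bears on it is the one with no filter, which it did not pass (limma adjusted p = 0.0712), and without either Tdt- library Npnt failed the filter and was not tested.

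The ratio of receptor to ligand within a library brings these levels together. Itga8 exceeded Npnt in 17 of the 19 libraries, all except NZC library 2 and SIX2- library 2. The ratio was 13.8, 16.0 and 16.9 in SIX2+ libraries, 8.07, 5.36 and 7.19 in GFP+, 3.28, 2.41 and 2.09 in GFP- and 1.16, 0.807 and 2.16 in SIX2- libraries. It was thus higher in every library of a positive fraction than in any library of its negative fraction. Unsorted NZC gave 1.62, 0.435 and 3.26. At E14.5 the ratio was 5.56 and 4.91 in Tdt- libraries, against 18 and 8.09 in the Tdt+ fraction, where both genes were low.

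**Figure D2:**
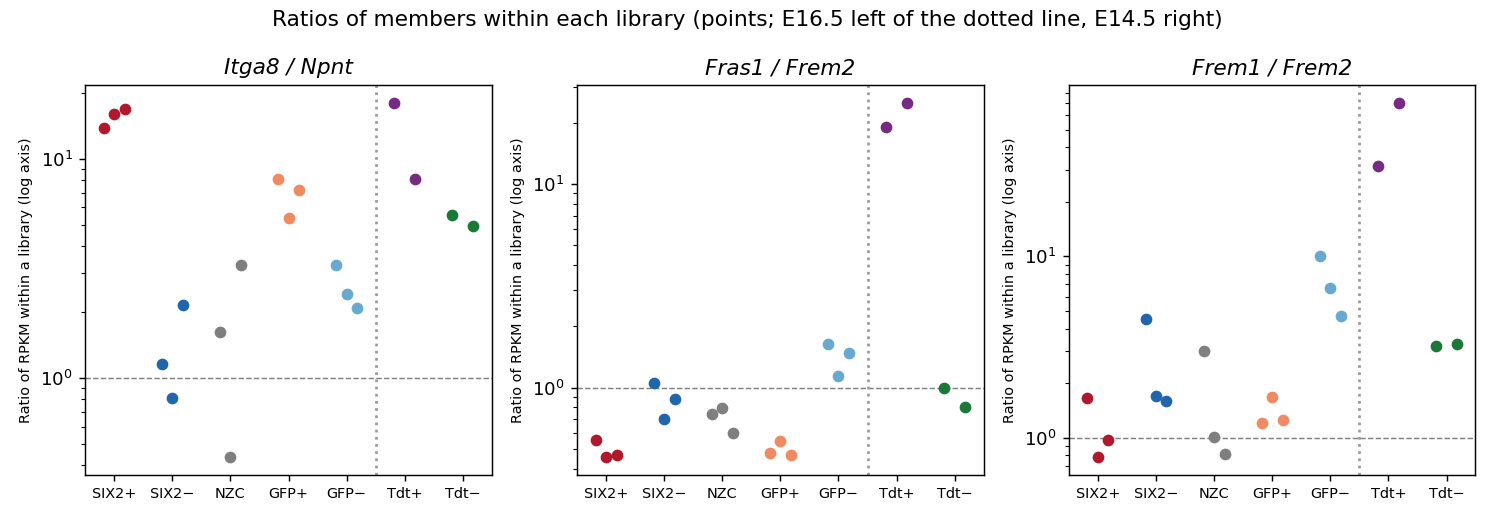
Ratios of RPKM within each library (points, log y axis) for Itga8 over Npnt, Fras1 over Frem2 and Frem1 over Frem2, by group (x axis); the dashed line marks equal levels. The Itga8 over Npnt ratio is 13.8 to 16.9 in SIX2+ libraries and 0.807 to 2.16 in SIX2- libraries, and Fras1 over Frem2 is 19 and 25.1 in Tdt+ libraries and at most 1.64 elsewhere.

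Fras1, the membrane-anchored matrix protein gene for which the complex is named, was at 2.49, 3.21 and 3.15 RPKM in SIX2+ libraries and 7.285, 8.77 and 8.59 in SIX2- libraries. All 3 SIX2+ values lay below all SIX2- values. Fras1 fell by 1.22 ± 0.26 (limma adjusted p = 0.00315), a 2.78-fold difference of means. GFP+ libraries held 5.95, 3.45 and 6.25 RPKM and GFP- libraries 11.7, 8.80 and 10.85, with no overlap. Fras1 fell here by 0.91 ± 0.26 (limma adjusted p = 0.0168), with means of 5.22 ± 1.54 and 10.4 ± 1.48 RPKM. That call was lost without GFP- library 1 (limma adjusted p = 0.0643), without GFP+ library 2 (0.0838) and without library 3 of both negative fractions (0.0591).

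At E14.5 Fras1 was present in both fractions, with Tdt+ libraries at 13.96 and 6.28 RPKM and Tdt- libraries at 16.1 and 14.8. Both Tdt+ values lay below both Tdt- values, but the Tdt+ libraries were far from each other. The difference of -0.66 ± 0.35 (95% interval -1.46 to 0.14) did not pass (limma adjusted p = 0.307). Without Tdt+ library 1 it was -1.18 and passed (limma adjusted p = 0.00786), so a single library decides that call.

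Frem1, whose product is a secreted member of the complex, had the highest level of the 3 complex genes in most groups. It exceeded Fras1 in all 19 libraries and Frem2 in 16 of them. SIX2+ libraries were at 7.52, 5.52 and 6.54 RPKM and SIX2- libraries at 31.4, 21.4 and 15.55. The groups did not overlap. Frem1 fell by 1.61 ± 0.33 (limma adjusted p = 0.002), with means of 6.53 ± 0.9995 and 22.8 ± 8.02 RPKM, a 3.49-fold difference. In GFP+ libraries it was at 15.2, 10.6 and 17.0 RPKM and in GFP- libraries at 72.2, 52.0 and 34.3. All GFP- libraries lay above all GFP+ libraries. Frem1 fell by 1.78 ± 0.33 (limma adjusted p = 0.00073), 3.71-fold, and this was the largest change of the 6 genes in that comparison.

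GFP- cells, with a mean of 52.8 ± 19 RPKM, held the most Frem1 of the E16.5 groups, and unsorted NZC (35.8, 27.3 and 15.1) overlapped them at the margin. The 10 interstitial stroma markers summed to 2277 to 3376 RPKM in GFP-, 1115 to 2289 in NZC, 1268 to 1931 in SIX2-, 89.3 to 113.0 in GFP+ and 90.5 to 111.8 in SIX2+ libraries. All 10 fell in both progenitor fractions against their negative fractions. Their part in the level of Frem1 was not tested. Tdt+ libraries, from the stromal lineage, had 23.1 and 17.6 RPKM of Frem1 and Tdt- libraries 51.5 and 60.4. The groups did not overlap and both were well above the SIX2+ values of the other table, although levels across tables share no normalisation. Frem1 fell in Tdt+ cells by 1.43 ± 0.24 (limma adjusted p = 0.0101), 2.75-fold. The call was lost without Tdt- library 2 (limma adjusted p = 0.0704) and with no filter (0.0716).

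Frem2, whose product is the other membrane-anchored protein of the complex, differed from its partners in the E16.5 sorts. It was at 4.53, 7.05 and 6.735 RPKM in SIX2+ and 6.96, 12.55 and 9.765 in SIX2- libraries, and the groups overlapped at their margin. The difference of -0.58 ± 0.30 (95% interval -1.23 to 0.06) did not pass (limma adjusted p = 0.196). GFP+ libraries were at 12.5, 6.285 and 13.5 RPKM and GFP- libraries at 7.13, 7.74 and 7.33. GFP+ libraries 1 and 3 lay above all GFP- libraries and GFP+ library 2 below them, and the difference of 0.42 ± 0.30 (interval -0.22 to 1.07) did not pass either (limma adjusted p = 0.309).

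Between Tdt+ and Tdt- cells Frem2 had the largest difference of the 6 genes. Tdt+ libraries were at 0.734 and 0.250 RPKM, about 92 and 28 reads, and Tdt- libraries at 16.2 and 18.3. The groups were far apart and both Tdt+ values were below 1 RPKM. The means of 0.492 ± 0.34 and 17.25 ± 1.54 RPKM differ 35.1-fold, a difference of -3.63 ± 0.27 on the log2 scale. Frem2 also passed the filter only through the Tdt- libraries; with no filter it fell at a limma adjusted p of 0.0493. With a pseudocount of 5 the difference was -2.02 and with 0.1 it was -5.00. Without either Tdt- library Frem2, like Npnt, failed the filter and was not tested. Frem2 thus stood at the 3.49th percentile of all genes tested in Tdt+ cells, where Fras1 stood at the 46.5th and Frem1 at the 66.4th. A gene that passed the filter only through the Tdt- libraries is bound to rank low there, so the Frem2 rank adds nothing to its values.

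The proportions of the complex genes follow from these values. Fras1 over Frem2 was 19 and 25.1 in Tdt+ libraries, against 0.999 and 0.806 in the Tdt- fraction. At E16.5 it was 0.455 to 0.55 in SIX2+ and 0.464 to 0.548 in GFP+ libraries, where Frem2 was the more abundant, 0.699 and 0.879 in SIX2- libraries 2 and 3, near 1 in SIX2- library 1 and 1.14 to 1.64 in GFP- libraries. Frem1 over Frem2 was 31.4 and 70.4 in Tdt+ libraries, 4.67 to 10.1 in GFP- and 0.782 to 1.68 over the 6 progenitor libraries.

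Grip1, the adaptor, was low in all libraries. It was at 1.87, 2.09 and 1.89 RPKM in SIX2+, 1.815, 1.92 and 1.75 in SIX2- libraries. The GFP+ libraries were at 2.61, 2.45 and 2.76 RPKM and the GFP- libraries at 2.50, 2.27 and 1.97. At E14.5 the Tdt+ libraries were at 2.95 and 2.74 RPKM and the Tdt- libraries at 2.70 and 3.32. Every pair of groups in these 3 comparisons overlapped. The differences were 0.06 ± 0.16 (interval -0.27 to 0.39), 0.15 ± 0.16 (-0.18 to 0.49) and -0.06 ± 0.24 (-0.62 to 0.51), with limma adjusted p = 0.839, 0.484 and 0.914. The direction of the last flips to 0.32 after quantile normalisation. Grip1 was the lowest of the Fraser genes in 17 of 19 libraries and exceeded Frem2 in the 2 Tdt+ libraries. Its 3′ end overlaps Helb, a gene on the other strand, by 3654 bases, and antisense genes also lie within Fras1 and Grip1.

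**Figure D3:**
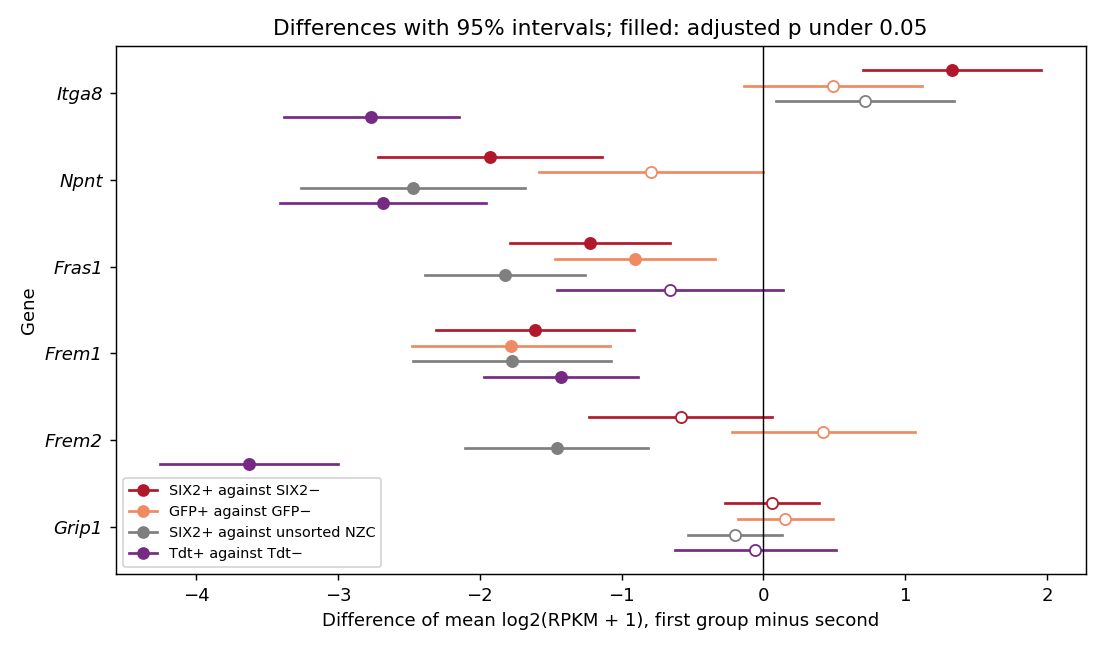
Difference of mean log2(RPKM + 1), first group minus second (x axis), with 95% intervals for each gene (y axis) in 4 comparisons (colours); filled circles passed at a limma adjusted p under 0.05. Itga8 is the one gene to the right of 0 between SIX2+ and SIX2- cells with a filled circle, and Frem2 between Tdt+ and Tdt- cells lies farthest to the left at -3.63, where Frem2 and Npnt passed the filter only through the Tdt- libraries.

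Whether the 2 ways of isolating nephron progenitors gave different contrasts was tested as the difference of the differences, (SIX2+ minus SIX2-) minus (GFP+ minus GFP-). None of the 6 genes was called, 2 had an unadjusted limma p under 0.05, and 0.140% of all genes were called (0.0468% higher and 0.0936% lower, 6 and 12 genes, which became 8 and 7 after quantile normalisation). Itga8 had 0.84 ± 0.42, Npnt -1.13 ± 0.52, Frem2 -1.01 ± 0.43, Fras1 -0.32 ± 0.37, Frem1 0.17 ± 0.46 and Grip1 -0.09 ± 0.22, with limma adjusted p between 0.786 and 1. The calls of Itga8 and Npnt in the antibody sort alone are therefore not shown to differ from the reporter sort.

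The progenitor fractions were also compared directly. Between SIX2+ and GFP+ cells none of the 6 genes was called, 3 had an unadjusted limma p under 0.05, and 3.07% of all genes were called (0.772% higher and 2.30% lower). Frem1, at 5.52 to 7.52 RPKM in SIX2+ and 10.6 to 17.0 in GFP+ libraries, did not overlap, nor did Npnt, Fras1 or Grip1. The share of all genes tested that did not overlap between these groups was not counted, so this is a description and not a result about the members. The Frem1 difference was -1.002 ± 0.33 (limma adjusted p = 0.13). It passed with only these groups in the fit (limma adjusted p = 0.0106) and with unsorted NZC left out of the fit (0.0463). It was also under the threshold with the replicate block (0.0337). That block joins libraries from kidneys of different genotype by number alone, so it lends no support here. Itga8 differed by 0.34 ± 0.29 (interval -0.29 to 0.96). The antibody-sorted cells were prepared by MARIS and the reporter cells from kidneys of another genotype, so preparation and genotype cannot be told apart here. The labels name 2 RNA kits without saying which library had which, and a difference between kits cannot be told apart from the groups either.

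Unsorted NZC hold both sorted fractions and served as a further reference, and the comparisons below share libraries with those above. A mixture of the 2 fractions would lie between them, but the NZC mean of every member except Itga8 was above both. For Npnt it was 23.7 RPKM, against 3.01 in SIX2+ and 15.55 in SIX2- cells. That NZC mean came from libraries at 19.7, 39.3 and 12 RPKM, and the highest was the shallow library 2. None of the 6 genes was called between SIX2- cells and NZC. Whether a fall against NZC is a difference between SIX2+ cells and the rest of the zone alone was not tested. Against NZC, 4 of the 6 genes were called in SIX2+ cells, all lower (Npnt, Fras1, Frem1 and Frem2), where 36.6% of all genes were called (18.1% higher and 18.5% lower; 1281 higher and 2668 lower in TPM, in place of 2320 and 2377). Npnt fell by 2.47 ± 0.37 (7.87-fold, limma adjusted p = 0.000222), Fras1 by 1.82 ± 0.26 (4.69-fold, 0.00017), Frem1 by 1.78 ± 0.33 (3.99-fold, 0.00107) and Frem2 by 1.46 ± 0.30 (3.15-fold, 0.00238). For each of the 4 all SIX2+ libraries lay below all NZC libraries, and the calls held without NZC library 2. The share of all genes tested with no overlap between these groups was not counted, so that separation is only a description. Itga8 was above all NZC libraries in each SIX2+ library, but its difference of 0.72 ± 0.29 did not pass (limma adjusted p = 0.0693). It did pass without NZC library 3 (limma adjusted p = 0.0225). It was also under the threshold with the replicate block (0.038), although nothing in the labels pairs SIX2+ and NZC libraries of the same number.

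SIX2- cells and unsorted NZC were closer. None of the 6 genes was called, 2 had an unadjusted limma p under 0.05 (Fras1 and Frem2), and 11.1% of all genes were called (5.16% higher and 5.95% lower; 157 higher and 612 lower in TPM, in place of 661 and 763). All 6 differences were below 0, from -0.87 ± 0.30 for Frem2 (limma adjusted p = 0.0718) to -0.16 ± 0.33 for Frem1 (0.764). Frem1 turned to 0.10 without NZC library 1. Without that library Fras1 (limma adjusted p = 0.0411) and Frem2 (0.0206) passed, and without NZC library 2 Itga8 did (-0.95, 0.0408). For Fras1, Frem2 and Npnt, NZC library 2 was the highest of the 3 NZC libraries. Frem2 was higher in NZC (11.97, 27.01 and 18.6 RPKM) than in either sorted fraction on average, and its lowest NZC library overlapped the highest SIX2- library. Of the 10 ureteric epithelium markers tested, 2 fell in SIX2- cells against NZC (Ret and Calb1) and none rose. The part of these markers in the Frem2 values was not tested.

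Genes that work with these 6 were described from lists. The first holds the integrin partner Itgb1, which encodes the beta1 subunit, and 7 genes of cytoplasmic adaptors and kinases. Of its 8 genes 6 fell in SIX2+ against SIX2- cells and 7 fell in GFP+ against GFP- cells, and none rose (medians -0.76 and -0.92). Itgb1 itself fell by 0.70 ± 0.22 (87.3 against 142.7 RPKM, limma adjusted p = 0.028) and by 0.79 ± 0.22 (107.5 against 189.9, 0.0115), so Itga8 and its partner moved in opposite directions in the antibody sort. The largest changes were those of Fermt2, encoding kindlin-2 (-1.25 and -1.45), Vcl, encoding vinculin (-1.09 and -1.62), and, in the GFP sort, Tln1, encoding talin (-1.08), or, in the SIX2 sort, Ilk, encoding integrin-linked kinase (-0.98). Between Tdt+ and Tdt- cells none of the 8 was called, the largest difference being that of Ilk (0.51 ± 0.29, limma adjusted p = 0.336).

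Other extracellular proteins reported to bind this integrin were mixed. Of 7 genes 2 rose and 3 fell in SIX2+ cells, and 3 rose and 3 fell in GFP+ cells, 1 of those that rose, Vtn, having passed the filter only through the GFP+ libraries (medians -0.50 and -0.26). Fn1, encoding fibronectin, fell by 3.73 ± 0.22 (8.77 against 130.7 RPKM, limma adjusted p = 2.38e-08) and by 4.2 ± 0.22 (16.6 against 321.9, 4.63e-09). Tgfb1, whose latent protein carries an integrin binding motif, fell by 3.02 and 2.90. Egfl6, a basement membrane protein gene, fell by 1.26 ± 0.19 in SIX2+ cells, and Ltbp1, encoding a latent TGF-beta binding protein, rose by 1.73 ± 0.18 in GFP+ cells. In Tdt+ cells, 1 of the 5 genes tested fell, Ltbp1 (-2.06 ± 0.38, limma adjusted p = 0.016), and none rose.

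Relatives of the Fraser complex numbered 5, of which Frem3 and Grip2 failed the filter. Hmcn1, encoding hemicentin-1, rose in SIX2+ cells (0.87 ± 0.27, limma adjusted p = 0.028), while Fbln1, encoding fibulin-1, fell by 1.52 ± 0.23 and Vwa2, encoding the FRAS1-binding protein AMACO, by 1.44 ± 0.25. In GFP+ cells Fbln1 fell by 2.01 ± 0.23 and the other two were not called. In Tdt+ cells Hmcn1 fell by 1.24 ± 0.24. Vwa2 was listed at 0 in both Tdt+ libraries, against a mean of 2.40 RPKM in Tdt- libraries, through which alone it passed the filter, while Fbln1 was not called.

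Basement membrane genes, which encode the layer in which the complex and nephronectin lie, were mostly lower in the positive fractions. Of 13 genes 8 fell in SIX2+, 7 in GFP+ and 8 in Tdt+ cells (7 apart from Lama1, which passed the filter there only through the Tdt- libraries), and 1 rose, Col18a1 in GFP+ cells (0.66 ± 0.23, limma adjusted p = 0.0417; named after its values were seen). The medians were -0.80 in SIX2+ and -0.53 in GFP+ cells. The leading genes differed. Nid1, encoding nidogen-1, fell most in SIX2+ (-3.66 ± 0.26) and GFP+ cells (-4.24 ± 0.26), followed by the laminin genes Lama1 (-2.38) and Lama4 (-2.23) and by Lama4 (-1.74) and Lama1 (-1.64). In Tdt+ cells the largest changes were those of Col18a1 (-4.06 ± 0.27), Col4a1 (-2.61 ± 0.29) and Lama1 (-2.53 ± 0.34).

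The GDNF axis, on which the receptor and ligand are known to act, was represented by 15 genes. Gdnf itself averaged 22.8 RPKM in SIX2+ and 27.7 in SIX2- libraries, 19.6 in GFP+ and 31.8 in GFP-, and 40.4 in Tdt+ and 17.2 in Tdt- libraries, and was called in none of the 3 comparisons (limma adjusted p = 0.763, 0.119 and 0.184; chosen after its values were seen). Of the 15 genes 8 rose and 3 fell in SIX2+ cells and 10 rose and 3 fell in GFP+ cells (medians 0.72 and 1.099). Eya1, a coactivator that works with SIX2, rose by 3.99 ± 0.42 and 4.57 ± 0.42 and Gfra1, the GDNF co-receptor gene, by 3.87 ± 0.28 in GFP+ cells. Wnt11, a ureteric tip target of GDNF, fell by 2.88 ± 0.24 and Gata3, a ureteric transcription factor gene, by 2.62 ± 0.22 in SIX2+ cells, and Pax2, a transcription factor gene, rose by 3.57 ± 0.49 in GFP+ cells. In Tdt+ cells 4 of 14 were called lower and none higher, with Gfra1 at -3.26 ± 0.27. Pax2 (-5.92 ± 0.24) and Eya1 (-4.90 ± 0.25) were among the 4 but passed the filter only through the Tdt- libraries.

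**Figure D4:**
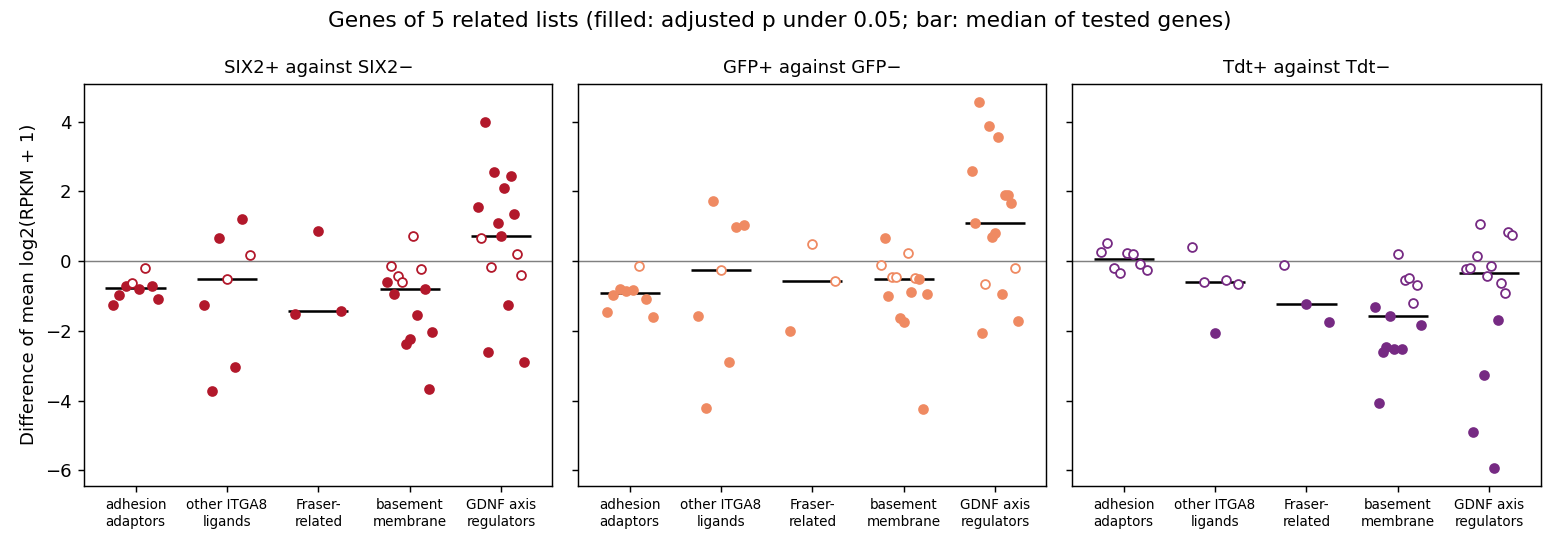
Difference of mean log2(RPKM + 1) (y axis) of each tested gene (circles) in 5 lists (x axis) in the 3 main comparisons (panels); filled circles passed at a limma adjusted p under 0.05 and bars are list medians. The adhesion adaptors lie below 0 in both nephron progenitor comparisons (medians -0.76 and -0.92) and near 0 between Tdt+ and Tdt- cells (0.05).

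The genes whose log2 level most resembled that of each member were found over the 15 E16.5 libraries among 8570 genes with a mean of at least 5 RPKM (8571 for Grip1). Nearest to Itga8 were Tshz1 (r = 0.921), Mbtd1 (0.912), Zadh2 (0.905) and Thsd4 (0.90). Near to Npnt were Myo5b (0.957), Atp1b1 (0.951) and Dkk2 (0.95). Fras1 was most like Hip1 (0.967), Notch1, Sptlc2 and Myh9 (0.936), and Frem1 most like Grk5 (0.982), Igdcc4, Loxl2 and Zeb2 (0.961). Frem2 had lower likeness, with Mtmr12 (0.882), Adgra3 (0.859) and Wwc1 (0.847), and these values were 0.799, 0.829 and 0.742 without NZC library 2. Grip1 was most like Taf2 (0.939), Prepl, Ppp6r3 and Topbp1 (0.911). Libraries of a group share their cell mixture and preparation, so these values describe the 5 groups more than 15 independent points.

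Between members, the same measure was highest for Npnt with Fras1 (r = 0.86 over 15 libraries) and for Fras1 with Frem1 (0.756; 0.894 over the 12 sorted libraries). It was negative for Itga8 with Npnt (-0.64) and with Fras1 (-0.59). Frem1 and Frem2 shared little of their pattern (0.196).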

How the data were processed

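Messenger RNA of 19 libraries was sequenced with a stranded kit, per the labels' protocols. The authors aligned reads with TopHat2 to mm10 and quantified them with Partek, per the submitters' processing notes. The deposited values are RPKM per gene: the tables are titled as TPM, but columns sum to 339430 to 453296 and differ between libraries, so they were treated as RPKM. Depth was estimated from the steps between low values, of which 55.5% to 69.6% lay near whole reads, too few to recover counts. The tables were normalised separately, and tests stayed within a table.

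Genes at 1 RPKM or more in at least 3 libraries (E16.5) or 2 (E14.5) were tested with limma 3.58.1 in R 4.3.3 on log2(RPKM + 1), with a mean-variance trend, two-sided, and Benjamini-Hochberg adjustment over all genes tested. The E16.5 fit held all 15 libraries (10 residual degrees of freedom) and the E14.5 fit 4 (2 residual). Fold changes on this scale understate those of low genes, and ratios are of mean RPKM. On data simulated from the real means, the fit recovered most larger changes at E16.5. For the E14.5 design it recovered none when each gene kept its own spread. With a moderated spread and well expressed genes it recovered 53% of 100 log2 changes of 1 and 100% of 100 changes of 2. Its noise was drawn from the spread that limma itself estimates, which favours recovery. The changed genes had a mean log2 level over 4, so it does not bear on low genes such as Npnt or Frem2. That E14.5 run also made 25 false calls among 12383 genes, beside the 53 and 100 changes recovered. The E16.5 run of the same kind made 14 among 12817. That second simulation was added after the first had failed at E14.5.

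Members and lists were chosen with earlier results of these data known. Named beside the members were the integrin partner, up to 3 called genes with the largest change per list and comparison, and the 4 genes with the highest correlation to each member, of which 2 are not reported here. Same-numbered libraries deviated together in the SIX2+ and SIX2- (r = 0.64, 0.28 and 0.68) and GFP+ and GFP- groups (0.45, 0.44 and 0.39). They also did so in the SIX2- and NZC groups (0.42, 0.19 and 0.50). The main fit held no replicate block, so the tests given are unpaired. Only the alternative with a replicate block used these numbers. The labels do not state what a number shares. Promoters were read from RefSeq, and the motif list was written after the promoter sequences had been seen. Alternatives covered the pseudocount, filter, scaling, replicate block, libraries in the fit and each library left out.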

Additional observations from a re-analysis of the deposited data

How the results depend on the processing

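Over 42 results and 1027 alternative values, 995 kept their direction and side of the threshold, and the SIX2+ against SIX2- calls held under every alternative run. Many of these values left out a library of a group not compared, which changes the estimated spread but cannot change the difference. The count of 995 is therefore no measure of how firm the results are. Between Tdt+ and Tdt- cells 4 members were called (2 of them, Npnt and Frem2, tested only because of the Tdt- libraries), but 1 with no filter, and 1 to 5 with each library left out: 2 without Tdt- library 1 and 1 without Tdt- library 2, when Npnt and Frem2 failed the filter, and 5 without Tdt+ library 1 (a lone library is assumed to vary like the others). Between GFP+ and GFP- cells the count of 2 became 1 without library 3 of both negative fractions (chosen after seeing the data) and ranged from 1 (without GFP- library 1 or GFP+ library 2) to 3 (without NZC library 2) with each library left out. Between SIX2- cells and NZC the count of 0 ranged from 0 to 2 (2 without NZC library 1, and 1 without NZC library 2 or GFP+ library 2). Between SIX2+ and GFP+ cells the count of 0 became 2 with only these groups in the fit and 1 with unsorted NZC left out (chosen after seeing the data). It became 1 with the replicate block, which there joins libraries from kidneys of different genotype. In the comparisons of SIX2+ with SIX2-, GFP+ with GFP- and SIX2- with NZC the replicate block changed no call of a member. For other groups, same-numbered libraries had r = 0.28, 0.063 and 0.3 for SIX2+ with NZC and 0.4, -0.017 and 0.58 for SIX2+ with GFP+. For Tdt+ with Tdt- r was 0.4. With 2 libraries per group both numbers give the same r by construction, so this is a single value. Nothing in the labels says what these libraries share beyond a number.

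The results that turned sign had not been called. Grip1 turned after quantile normalisation against NZC in SIX2+ cells (0.10), in the difference between sorts (0.038) and in Tdt+ cells (0.32), where it also turned without Tdt- library 2 (0.054; range over libraries left out -0.168 to 0.054). Frem1 turned in the difference between sorts without GFP- library 1 (-0.086), GFP+ library 2 (-0.02) or SIX2- library 3 (-0.066), with a range of -0.086 to 0.442, and between SIX2- and NZC without NZC library 1 (0.10), SIX2- library 3 (0.07) or both libraries numbered 3 (0.073), with a range of -0.494 to 0.10. The cause was not tested. Few reads lie behind Npnt and Frem2 in Tdt+ libraries, and their sizes there follow the pseudocount. Grip1 in NZC library 2 rests on about 44 reads.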

Other observations

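Over the 15 E16.5 libraries, the antisense gene E030013I19Rik was the one overlapping gene of Itga8 followed in the tests, and its correlation with Itga8 was r = 0.743 over the 14 libraries without NZC library 2. It also rose in SIX2+ cells against unsorted NZC (1.67 ± 0.39, limma adjusted p = 0.00474). Helb, which overlaps the 3′ end of Grip1, was called in 1 of the 7 comparisons, SIX2+ against NZC (-0.77 ± 0.24, limma adjusted p = 0.0249), where Grip1 was not.

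Erythroid markers varied widely and were not tested further. The 6 genes summed to 817.2 to 8435 RPKM in GFP- and 11.3 to 50.9 in GFP+ libraries, to 3.67 to 16.2 in SIX2- and 0.286 to 1.73 in SIX2+ libraries, and to 271.4 to 2978 in unsorted NZC.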
